A study of Homo sapiens with 12 samples.

Results

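The 10 MAPK feedback genes described here were measured across 12 arrays. They are the dual-specificity phosphatase genes DUSP1, DUSP2, DUSP4, DUSP5, DUSP6 and DUSP10, the Sprouty genes SPRY1, SPRY2 and SPRY4, and the Sprouty-related gene SPRED2. A gene was taken from probe sets annotated to it alone whose 12 values carried 3 decimals, and all 10 of the listed genes were found among the 16913 genes kept. They had 25 probe sets between them, and the probe sets of a gene repeated 1 set of values. The samples were the Ewing sarcoma lines A673 and TC32, each kept for 6 hours in the solvent DMSO, in 100 nM THZ531 or in 500 nM THZ531, with 2 arrays per group. Both lines come from Ewing sarcoma, a tumour of bone and soft tissue that depends on the fusion protein EWS/FLI. THZ531 binds CDK12 and CDK13 covalently and blocks these kinases, which act on elongating RNA polymerase II. The study asked how THZ531 alters transcription in these cells. Each line stands for itself, so a difference between A673 and TC32 is one between 2 cell lines. The labels call the 2 arrays of a group biological replicates and do not say that they came from separate cultures, so p-values reflect the spread among these arrays, which may be technical. Where a call is said to be lost without an array, the range of values beside it is over all 12 arrays left out in turn.

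Growth factor receptors signal through RAS and the kinases RAF, MEK and ERK. ERK switches on transcription of its own inhibitors, and these genes are read in many tumours as a record of ERK output. Dual-specificity phosphatases remove the activating phosphates from MAP kinases: DUSP6 acts on ERK in the cytoplasm, DUSP5 on ERK in the nucleus, DUSP4, DUSP2 and DUSP1 on ERK, JNK or p38 in the nucleus, and DUSP10 on JNK and p38. Sprouty proteins restrain signalling from receptors to RAS and RAF, and SPRED2 does so together with the RAS inhibitor NF1. Many of these transcripts are short-lived and are made from compact genes. A673 cells are known to carry an activating mutation of BRAF, a RAF kinase, in addition to the Ewing fusion.

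All values are the authors' log2 signals, and each difference is given as deposited, after centring, that is, relative to the array median of the 16913 kept genes, or on both scales. The choice matters because whole arrays were shifted. Over the 10148 genes tested, the medians of A673 arrays were 8.78 to 8.87 for DMSO, 8.11 to 8.15 for 100 nM, and 7.43 to 7.98 for 500 nM. Those of TC32 arrays were 7.94 to 8.08 for DMSO, 7.72 for both arrays of 100 nM, and 6.87 to 6.88 for 500 nM. Centring took log2 shifts of -0.62 in A673 and -0.21 in TC32 out of the 100 nM comparisons with DMSO, and of -0.83 in A673 and -0.79 in TC32 out of the 500 nM comparisons. Fewer cells, less RNA per cell and a difference in array scaling cannot be told apart in these shifts. Genes were tested when their mean over the 12 arrays was at or above 5.94, and 9 of the 10 feedback genes were. DUSP10 lay under that level, and its tests come from a fit without the filter. Ewing sarcoma markers fit the labels, with 8 of 8 measured markers at or above 5.94 in both lines with DMSO. Markers of other cell types were mixed. With DMSO, 2 of 3 haematopoietic, 1 of 4 epithelial, 2 of 3 endothelial and 1 of 3 muscle markers were at or above 5.94 in A673, and 1 of each list was in TC32. PTPRC (leukocytes) had group means of 3.63 to 4.06 and EPCAM (epithelium) 4.03 to 4.32, while CD79A (B cells) had 6.53 to 7.40, CLDN4 (epithelium) 6.65 to 7.70, DES (muscle) 6.40 to 7.59, VWF 5.79 to 6.76 and PECAM1 5.81 to 6.49 (both endothelium). A signal near the filter level or under it therefore does not by itself show expression. Group means of SPRY4 and SPRED2 lay under the level in all 3 TC32 groups, those of DUSP4 and DUSP5 in 2 TC32 groups, and those of DUSP2, SPRY1 and SPRY2 in TC32 at 500 nM.

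Promoter windows, from 250 bases before to 50 bases after an annotated start in the RefSeq table for GRCh38.p14, are printed for 3 genes with different patterns across these arrays. DUSP1 (chr5:172771146-172771445, minus strand) was higher in TC32 than in A673, DUSP6 (chr12:89352452-89352751, minus strand) was far higher in A673, and SPRY4 (chr5:142324198-142324497, minus strand) was also higher in A673. Capitals mark matches on either strand to the cyclic AMP response element (TGACGTCA), its shorter core (TGACG), the TATA box (TATAAA), the CCAAT box (CCAAT) and the GC box (GGGCGG), and overlapping matches run together.
DUSP1: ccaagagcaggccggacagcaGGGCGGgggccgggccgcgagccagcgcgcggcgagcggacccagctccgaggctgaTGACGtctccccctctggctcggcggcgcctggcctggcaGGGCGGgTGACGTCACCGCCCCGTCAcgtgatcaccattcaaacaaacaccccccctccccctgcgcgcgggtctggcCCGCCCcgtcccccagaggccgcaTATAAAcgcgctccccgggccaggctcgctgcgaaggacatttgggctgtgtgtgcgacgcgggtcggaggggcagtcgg
DUSP6: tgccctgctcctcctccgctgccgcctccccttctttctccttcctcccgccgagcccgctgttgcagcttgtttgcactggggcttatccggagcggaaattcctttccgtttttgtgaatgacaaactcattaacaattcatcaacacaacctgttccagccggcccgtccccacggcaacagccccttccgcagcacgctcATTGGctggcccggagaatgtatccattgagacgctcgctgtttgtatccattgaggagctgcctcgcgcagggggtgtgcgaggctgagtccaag
SPRY4: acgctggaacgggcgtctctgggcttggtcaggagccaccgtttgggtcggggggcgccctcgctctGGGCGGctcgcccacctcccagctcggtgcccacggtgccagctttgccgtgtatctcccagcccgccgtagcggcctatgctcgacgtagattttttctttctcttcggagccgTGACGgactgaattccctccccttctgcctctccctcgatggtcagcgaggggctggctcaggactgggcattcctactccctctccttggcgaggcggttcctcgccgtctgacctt
The DUSP1 window held 1 full cyclic AMP response element, 4 matches to the shorter core counting those inside it, 1 TATA box and 4 GC boxes. The DUSP6 window held 1 CCAAT box, and the SPRY4 window held 1 shorter core and 1 GC box. Of the 13 windows listed for 8 of the feedback genes, only that of DUSP1 held the full element, which 1.85% of all 35116 windows hold. The shorter core was found in 5 of the 13 windows (24.55% of all), TATA boxes in 2 (11.53%), GC boxes in 9 (44.95%), CCAAT boxes in 3 (34.61%) and the AP-1 site TGANTCA in 1, that of SPRED2 (7.71%). The ETS site CCGGAAGT (4.14% of all windows), a tandem ETS core GGAAGGAA (3.67%) and the CArG box (1.29%) were found in 0 of the 13. A match describes the letters of a window and not a bound site.

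With DMSO alone, A673 had more signal than TC32 for the ERK-directed phosphatases DUSP4, DUSP5 and DUSP6 and for the Sprouty genes, and less for DUSP1. DUSP6 had 11.81 and 11.82 (log2) in A673 against 7.98 and 7.96 in TC32, a 14.4-fold difference in signal as deposited. The difference was 3.84 ± 0.20 (log2, n = 2 against 2) as deposited and 3.15 ± 0.11 after centring (limma, adjusted p = 2.08e-16). Each SE here and below is the moderated one of the limma fit over all 12 arrays, not the spread of the arrays compared. DUSP5 had 8.56 and 8.61 in A673 and 5.86 and 5.77 in TC32, at least 6.24-fold as deposited and 2.08 higher after centring (limma, adjusted p = 8.38e-12). DUSP4 had 8.19 and 8.14 in A673 and 5.35 and 5.50 in TC32, at least 4.67-fold as deposited and 2.05 higher after centring (limma, adjusted p = 9.56e-12). The deposited means over the TC32 arrays, 5.70 for DUSP5 and 5.45 for DUSP4, lay under the filter level. Both genes reached the tests through their A673 signal, so their p-values between the lines are descriptions. As deposited, groups did not overlap for DUSP4, DUSP5 and DUSP6. The lowest of their 6 A673 arrays, treated ones included, lay above the highest of their 6 TC32 arrays. How many of all tested genes had such a gap was not counted. With DMSO, 77.4% of all tested genes were called higher in A673 as deposited.

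The Sprouty genes had the same direction with smaller differences. SPRY4 had 7.43 and 7.38 in A673 against 5.24 and 5.17 in TC32, at least 2.76-fold as deposited and 1.51 ± 0.14 higher after centring (limma, adjusted p = 5.91e-09). SPRY2 had 7.78 and 8.15 in A673 against 6.32 and 6.17 in TC32, 3.29-fold as deposited and 1.03 higher after centring (limma, adjusted p = 8.54e-06). SPRY1 had 7.89 and 7.64 in A673 against 6.18 and 6.23 in TC32, 2.95-fold as deposited and 0.87 higher after centring (limma, adjusted p = 5.58e-06). SPRED2 had 7.27 and 7.13 in A673 against 5.86 and 5.83 in TC32, at least 2.39-fold as deposited and 0.66 higher after centring (limma, adjusted p = 0.000694). The deposited means of SPRY4 and SPRED2 lay under the filter level in all 3 TC32 groups. SPRY4 and SPRED2 thus reached the tests through their A673 signal, and their p-values between the lines are descriptions. For all 3 Sprouty genes the 6 A673 arrays again lay above the 6 TC32 arrays as deposited, a gap not counted over all tested genes. The SPRED2 arrays of the 2 lines overlapped, since 1 A673 array at 500 nM had 5.68 and 1 TC32 array at 100 nM had 5.96.

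DUSP1, an immediate-early phosphatase also induced by stress, went the other way. It had 8.57 and 8.22 in A673 with DMSO against 9.40 and 9.06 in TC32, a difference of -0.83 ± 0.21 as deposited and -1.52 ± 0.13 after centring (limma, adjusted p = 1.14e-09). DUSP2 had 7.14 and 6.64 in A673 against 6.41 and 6.22 in TC32, and its difference was 0.58 as deposited (limma, adjusted p = 0.0121) but -0.11 after centring (adjusted p = 0.546). Its call as deposited was lost without replicate 1 of the A673 DMSO arrays or without replicate 2 of the TC32 DMSO arrays, with values of 0.33 to 0.83 over all arrays left out in turn. DUSP10, the JNK and p38 phosphatase, was dim in both lines, at 5.21 and 5.29 in A673 and 5.59 and 5.47 in TC32. In the unfiltered fit its difference was -0.28 as deposited (limma, adjusted p = 0.252) and -0.98 after centring (adjusted p = 0.000118). Of the 9 tested genes, 8 were higher in A673 and 1 lower as deposited, where 77.4% of all tested genes were higher and 5.13% lower. On the centred scale 7 were higher and 1 lower, against 33.9% and 21.4% of all tested genes, and 4 of these 7 (DUSP4, DUSP5, SPRY4 and SPRED2) passed the brightness filter through A673.

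**Figure D1:**
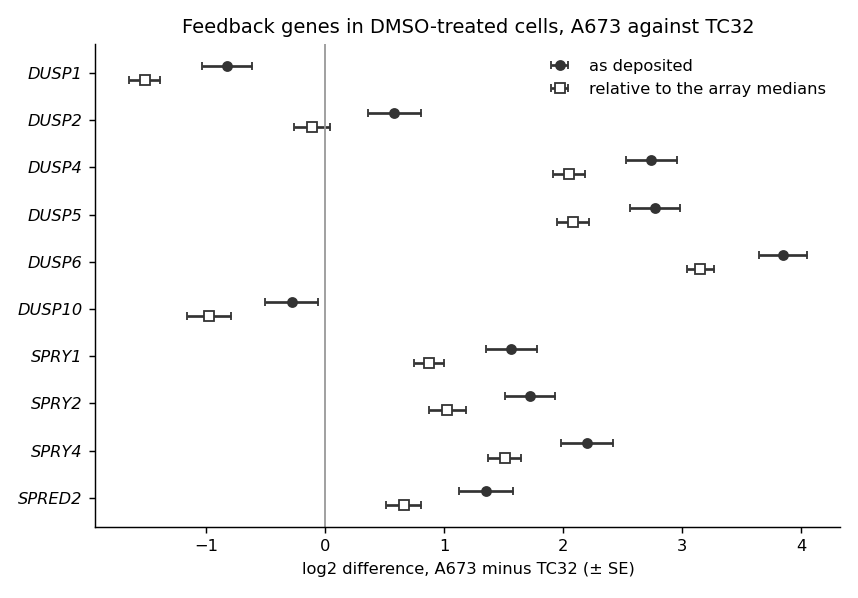
Log2 difference between A673 and TC32 with DMSO for each feedback gene, with the standard error (n = 2 against 2 arrays); filled circles are values as deposited and open squares are relative to the array medians. DUSP6 has the highest value on both scales (3.84 and 3.15), and DUSP1 and DUSP10 lie below 0 on both.

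With THZ531, the feedback genes did not move as a block. Below, arrays of one dose are at times said to lie above or below those of another. The share of all tested genes with such a gap was not counted, and whole arrays were shifted between doses. Those gaps are therefore descriptions of single genes. At 500 nM the deposited differences from DMSO were below 0 for all 10 genes in A673 and for all but SPRY4 in TC32. Of all tested genes, 82.5% in A673 and 62.9% in TC32 were called lower there, with medians of -0.73 in A673 and -0.64 in TC32. At 100 nM in TC32, 8 of 10 were above 0 as deposited, of which DUSP4, DUSP5 and DUSP10 passed the threshold. Among all tested genes 5.56% were called higher in that comparison, with a median of -0.07. DUSP4 and DUSP5 were level with or above DMSO at 100 nM and fell at 500 nM as deposited. DUSP6 had deposited differences at 500 nM that did not pass the threshold in either line, and rose after centring in both. After centring, the 500 nM values of DUSP1, SPRY2 and DUSP4 differed between the lines, with DUSP4 under the filter level in TC32 with DMSO and at 500 nM.

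**Figure D2:**
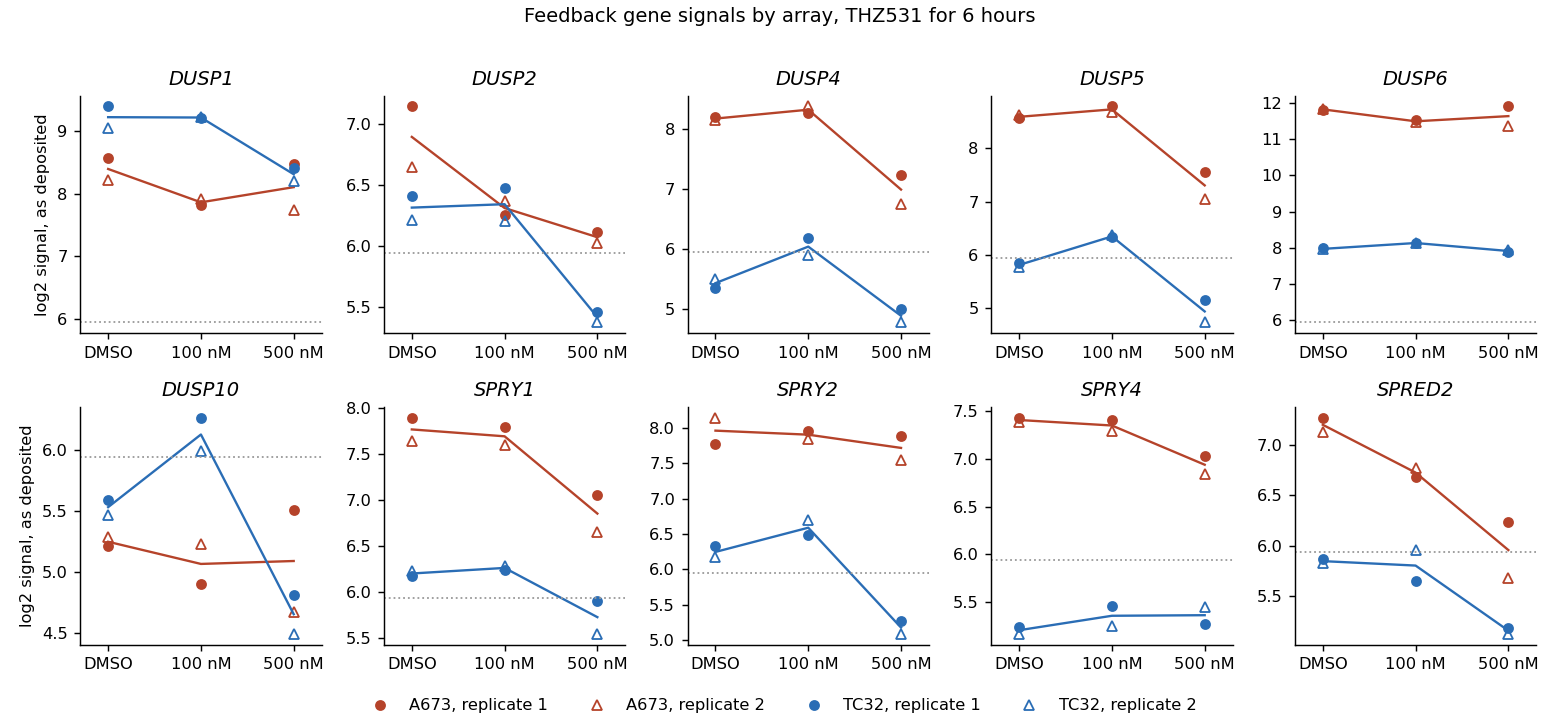
Deposited log2 signal of each feedback gene on each array, by dose of THZ531, with A673 in red and TC32 in blue, circles and triangles for replicates 1 and 2, and lines through the group means; the vertical axes differ between genes and do not start at 0, and the dotted line is the filter level of 5.94. DUSP4 and DUSP5 are level or higher at 100 nM and lower at 500 nM in both lines, while DUSP6 runs nearly flat.

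DUSP6, the cytoplasmic ERK phosphatase, had 11.81 and 11.82 in A673 with DMSO, 11.51 and 11.46 with 100 nM and 11.90 and 11.36 with 500 nM. In TC32 it had 7.98 and 7.96 with DMSO, 8.13 with 100 nM on both arrays, and 7.88 and 7.95 with 500 nM. The 500 nM arrays of A673 lay on both sides of the DMSO arrays, and no deposited difference of DUSP6 passed the threshold in either line. At 100 nM it was -0.33 in A673 (limma, adjusted p = 0.134) and 0.16 in TC32 (adjusted p = 0.657). At 500 nM the difference from DMSO was -0.19 ± 0.20 in A673 (limma, adjusted p = 0.365) and -0.06 ± 0.20 in TC32 (adjusted p = 0.8). After centring DUSP6 rose by 0.65 ± 0.11 in A673 (limma, adjusted p = 5.68e-05) and by 0.73 ± 0.11 in TC32 (adjusted p = 7.67e-06) at 500 nM. These values set a nearly level deposited signal against array medians that were 0.83 lower in A673 and 0.79 lower in TC32. They do not show more DUSP6 signal as deposited. At 100 nM the centred values were 0.29 in A673 (limma, adjusted p = 0.0453) and 0.37 in TC32 (adjusted p = 0.0105), and the A673 call was lost when any of 7 arrays was left out, with values of 0.16 to 0.42. The TC32 call was lost without replicate 1 of its DMSO arrays or replicate 2 of its 100 nM arrays (0.31 to 0.43). Without replicate 1 of the A673 500 nM arrays, the deposited difference at 500 nM was -0.45 and passed the threshold.

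DUSP5, the nuclear ERK phosphatase, had 8.56 and 8.61 in A673 with DMSO, 8.78 and 8.67 with 100 nM and 7.55 and 7.05 with 500 nM. TC32 arrays had 5.86 and 5.77 with DMSO, 6.33 and 6.36 with 100 nM and 5.15 and 4.74 with 500 nM. In both lines every 100 nM array lay above every DMSO array, and every 500 nM array lay below. At 500 nM DUSP5 fell by 1.28 ± 0.21 in A673 as deposited, and after centring the difference was -0.45 (limma, adjusted p = 0.007), a call lost without replicate 2 of the A673 DMSO arrays, where the value was -0.30. In TC32 at 500 nM the difference was -0.87 ± 0.21 as deposited (limma, adjusted p = 9.5e-05) and -0.08 after centring (adjusted p = 0.61). At 100 nM DUSP5 rose after centring by 0.76 ± 0.13 in A673 (limma, adjusted p = 0.000106) and by 0.74 ± 0.13 in TC32 (adjusted p = 9.76e-05). As deposited, the 100 nM difference was 0.14 in A673 (limma, adjusted p = 0.545) and 0.53 in TC32 (adjusted p = 0.0445), and the TC32 call was lost without any of 8 arrays, with values of 0.49 to 0.58.

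DUSP4, a nuclear phosphatase of ERK and JNK, followed the same course. It had 8.19 and 8.14 in A673 with DMSO, 8.26 and 8.37 with 100 nM and 7.22 and 6.74 with 500 nM. The TC32 arrays carried 5.35 and 5.50 with DMSO, 6.18 and 5.89 with 100 nM and 4.99 and 4.77 with 500 nM. Again every 100 nM array lay above every DMSO array of its line and every 500 nM array below. At 500 nM the difference was -1.18 ± 0.22 in A673 (limma, adjusted p = 1.48e-07) and -0.54 ± 0.22 in TC32 (adjusted p = 0.0198) as deposited, and -0.35 in A673 (adjusted p = 0.029) and 0.25 in TC32 (adjusted p = 0.0959) after centring. The centred call in A673 was lost without replicate 2 of its DMSO arrays or either of its 500 nM arrays, with values of -0.45 to -0.25. The deposited call in TC32 was lost without either of its DMSO arrays or replicate 2 of its 500 nM arrays, with values of -0.66 to -0.43. At 100 nM DUSP4 rose after centring by 0.77 ± 0.13 in A673 (limma, adjusted p = 8.61e-05) and by 0.81 ± 0.13 in TC32 (adjusted p = 2.9e-05). As deposited the 100 nM value was 0.15 in A673 (limma, adjusted p = 0.53) and 0.61 in TC32 (adjusted p = 0.0211), and the TC32 call was lost without either of its DMSO arrays or replicate 1 of its 100 nM arrays, with values of 0.46 to 0.75.

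DUSP1 had 8.57 and 8.22 in A673 with DMSO, 7.82 and 7.92 with 100 nM and 8.48 and 7.74 with 500 nM. In TC32 it had 9.40 and 9.06 with DMSO, 9.21 and 9.24 with 100 nM and 8.42 and 8.21 with 500 nM. Of the A673 500 nM arrays 1 lay within the range of the DMSO arrays and the other below it, and in TC32 both 500 nM arrays lay below both DMSO arrays. The 500 nM difference was -0.29 ± 0.21 in A673 (limma, adjusted p = 0.176) and -0.91 ± 0.21 in TC32 (adjusted p = 3.19e-05) as deposited. With the arrays centred it was 0.54 ± 0.13 in A673 (limma, adjusted p = 0.00128) and -0.12 ± 0.13 in TC32 (adjusted p = 0.403). Without replicate 1 of the A673 500 nM arrays, the deposited value in A673 was -0.66 and passed the threshold. At 100 nM the difference was -0.53 in A673 as deposited (limma, adjusted p = 0.0214), a call lost without replicate 1 of the DMSO arrays or either 100 nM array (values of -0.71 to -0.36), and 0.09 after centring (adjusted p = 0.628). In TC32 at 100 nM the difference was -0.0055 as deposited (limma, adjusted p = 0.99) and 0.20 after centring (adjusted p = 0.195).

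DUSP2, an inducible nuclear phosphatase best known from immune cells, had 7.14 and 6.64 in A673 with DMSO, 6.25 and 6.37 with 100 nM and 6.12 and 6.03 with 500 nM. TC32 arrays had 6.41 and 6.22 with DMSO, 6.48 and 6.21 with 100 nM and 5.46 and 5.37 with 500 nM. As deposited, both lines had their lowest DUSP2 arrays at 500 nM. At 500 nM the deposited differences of -0.82 in A673 (limma, adjusted p = 0.000448) and -0.90 in TC32 (adjusted p = 0.000132) became 0.01 in A673 (adjusted p = 0.96) and -0.11 in TC32 (adjusted p = 0.534) after centring. At 100 nM the difference was -0.58 in A673 as deposited (limma, adjusted p = 0.0183), a call lost without replicate 1 of the DMSO arrays or either 100 nM array (values of -0.83 to -0.33), and 0.03 in TC32 (adjusted p = 0.952). The centred 100 nM values were 0.04 in A673 (limma, adjusted p = 0.869) and 0.23 in TC32 (adjusted p = 0.193).

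DUSP10 had 5.21 and 5.29 in A673 with DMSO, 4.91 and 5.23 with 100 nM and 5.51 and 4.68 with 500 nM, all under the filter level. The TC32 arrays carried 5.59 and 5.47 with DMSO, 6.27 and 5.99 with 100 nM and 4.82 and 4.50 with 500 nM. In TC32 its order was thus that of DUSP4 and DUSP5, with both 100 nM arrays highest and both 500 nM arrays lowest. In the unfiltered fit the TC32 difference was 0.60 at 100 nM (limma, adjusted p = 0.0481) and -0.88 at 500 nM (adjusted p = 0.000355) as deposited. Centred on the array medians, it was 0.80 at 100 nM (limma, adjusted p = 0.00142) and -0.09 at 500 nM (adjusted p = 0.674). In A673 the deposited values were -0.18 at 100 nM (limma, adjusted p = 0.503) and -0.16 at 500 nM (adjusted p = 0.547), and the centred values were 0.44 at 100 nM (adjusted p = 0.0702) and 0.67 at 500 nM (adjusted p = 0.00398). The one A673 call of DUSP10 is thus on the centred scale, in arrays that all lay under the filter level.

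Among the receptor-level inhibitors, SPRY4 was the one with a deposited difference above 0 at 500 nM in TC32. It had 7.43 and 7.38 in A673 with DMSO, 7.40 and 7.29 with 100 nM and 7.03 and 6.84 with 500 nM. In TC32 it had 5.24 and 5.17 with DMSO, 5.46 and 5.25 with 100 nM and 5.28 and 5.45 with 500 nM. These TC32 arrays all lay between 5.17 and 5.46, under the filter level, while the array medians of TC32 dropped. Against DMSO, 500 nM gave -0.47 ± 0.22 in A673 (limma, adjusted p = 0.0425) and 0.16 ± 0.22 in TC32 (adjusted p = 0.529) as deposited, and the A673 call was lost without any of 11 arrays, with values of -0.56 to -0.37. After centring it was 0.36 in A673 (limma, adjusted p = 0.032), a call lost without replicate 1 of the DMSO arrays or replicate 2 of the 500 nM arrays (0.23 to 0.50), and 0.95 ± 0.14 in TC32 (adjusted p = 4.36e-06). The TC32 value sets a flat, dim signal against array medians that were 0.79 lower, so it does not show more SPRY4 signal. At 100 nM the centred values were 0.56 in A673 (limma, adjusted p = 0.0029) and 0.36 in TC32 (adjusted p = 0.039), and the TC32 call was lost without any of 6 arrays, with values of 0.31 to 0.40. As deposited they were -0.06 in A673 (limma, adjusted p = 0.818) and 0.15 in TC32 (adjusted p = 0.719).

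SPRY2 had 7.78 and 8.15 in A673 with DMSO, 7.97 and 7.85 with 100 nM and 7.89 and 7.55 with 500 nM. TC32 arrays had 6.32 and 6.17 with DMSO, 6.48 and 6.70 with 100 nM and 5.26 and 5.09 with 500 nM. The 3 A673 groups overlapped, while both TC32 500 nM arrays lay below every other TC32 array. At 500 nM the difference was -0.24 ± 0.21 in A673 (limma, adjusted p = 0.26) and -1.07 ± 0.21 in TC32 (adjusted p = 1.25e-06) as deposited. On the centred scale it was 0.59 ± 0.16 in A673 (limma, adjusted p = 0.00324), a call lost without replicate 1 of the DMSO arrays (0.28), and -0.28 ± 0.16 in TC32 (adjusted p = 0.114). At 100 nM SPRY2 rose after centring by 0.56 in A673 (limma, adjusted p = 0.00643) and by 0.55 in TC32 (adjusted p = 0.00614). Those calls were lost without replicate 1 of the A673 DMSO arrays (0.25) and without replicate 2 of the TC32 100 nM arrays (0.38). The deposited 100 nM values of SPRY2 were -0.06 in A673 (limma, adjusted p = 0.811) and 0.34 in TC32 (adjusted p = 0.258).

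SPRY1 had 7.89 and 7.64 in A673 with DMSO, 7.79 and 7.59 with 100 nM and 7.05 and 6.65 with 500 nM. The TC32 arrays carried 6.18 and 6.23 with DMSO, 6.24 and 6.29 with 100 nM and 5.91 and 5.55 with 500 nM. The 500 nM arrays were the lowest of both lines. The 500 nM difference was -0.91 ± 0.21 in A673 (limma, adjusted p = 4.87e-05) and -0.47 ± 0.21 in TC32 (adjusted p = 0.0427) as deposited, and the TC32 call was lost without any of 7 arrays, with values of -0.65 to -0.29. After centring it was -0.08 in A673 (limma, adjusted p = 0.604) and 0.32 in TC32 (adjusted p = 0.0309), and that TC32 call was lost without replicate 1 of the TC32 DMSO arrays or replicate 1 of the 500 nM arrays (0.17 to 0.47). At 100 nM SPRY1 rose after centring in A673, by 0.54 (limma, adjusted p = 0.00177), and had 0.27 in TC32 (adjusted p = 0.0864). Its deposited 100 nM values were -0.07 in A673 (limma, adjusted p = 0.754) and 0.06 in TC32 (adjusted p = 0.892).

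SPRED2 had 7.27 and 7.13 in A673 with DMSO, 6.68 and 6.77 with 100 nM and 6.23 and 5.68 with 500 nM. In TC32 it had 5.86 and 5.83 with DMSO, 5.65 and 5.96 with 100 nM and 5.19 and 5.13 with 500 nM. As deposited, the 3 dose groups of A673 did not overlap and ran downward with dose. Against DMSO, 500 nM gave -1.24 ± 0.22 in A673 (limma, adjusted p = 1.23e-07) and -0.69 ± 0.22 in TC32 (adjusted p = 0.00426) as deposited. With the arrays centred it was -0.41 in A673 (limma, adjusted p = 0.0238) and 0.10 in TC32 (adjusted p = 0.532), and the A673 call was lost without replicate 2 of the DMSO arrays or either 500 nM array (-0.46 to -0.35). At 100 nM the difference in A673 was -0.47 as deposited (limma, adjusted p = 0.0568) and 0.15 after centring (adjusted p = 0.457), so its direction turns with the scale. In TC32 it was -0.04 as deposited (limma, adjusted p = 0.928) and 0.16 after centring (adjusted p = 0.366).

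**Figure D3:**
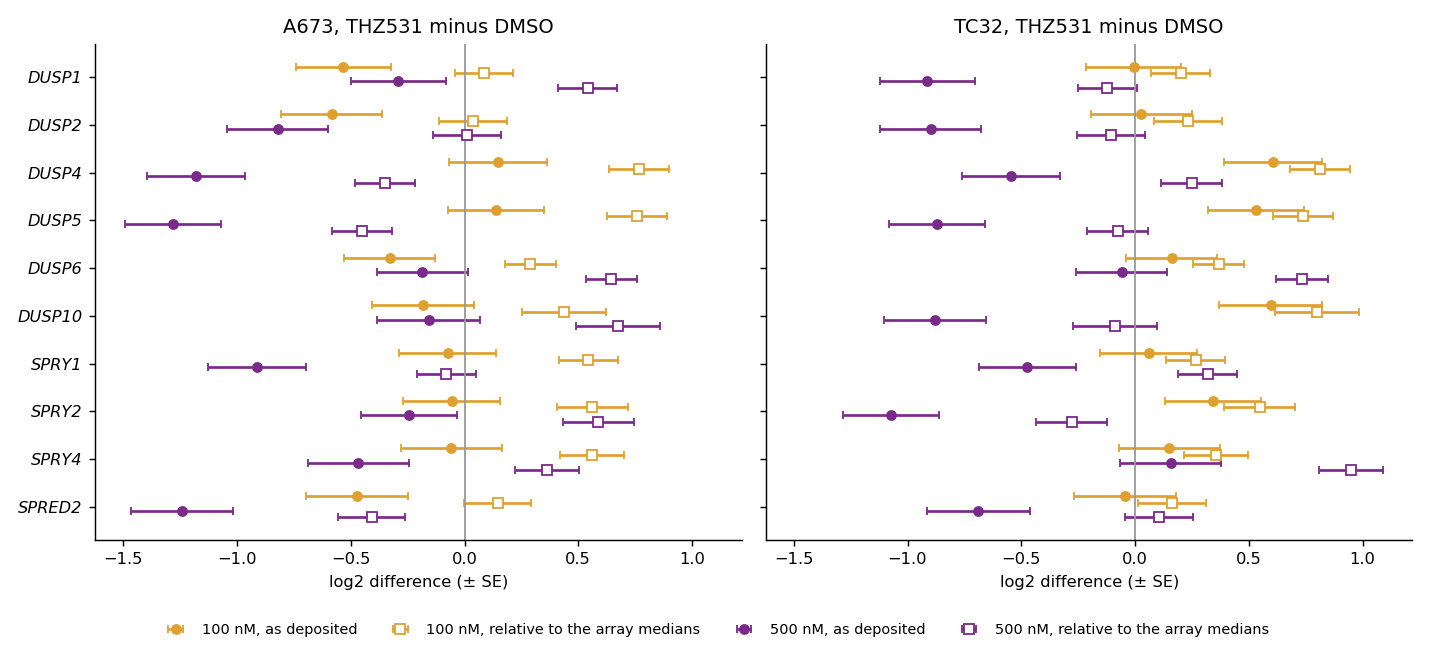
Log2 difference between THZ531 and DMSO for each feedback gene in A673 (left) and TC32 (right), with the standard error (n = 2 against 2 arrays), in orange for 100 nM and purple for 500 nM; filled circles are as deposited and open squares relative to the array medians. At 500 nM the deposited values of DUSP4, DUSP5 and SPRED2 in A673 lie below -1, while DUSP6 and SPRY4 lie above 0 after centring in both lines.

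Read as a list, the tested feedback genes had medians at 500 nM within 0.1 of those of all tested genes on both scales and in both lines. In A673 at 500 nM, 6 of the 9 tested genes fell as deposited (DUSP2, DUSP4, DUSP5, SPRY1, SPRY4 and SPRED2) and 0 rose, where 82.5% of all tested genes were lower and 0.946% higher. Their median difference was -0.82 against -0.73 over all tested genes. Without replicate 1 of the A673 500 nM arrays the count that fell was 9. After centring 4 rose (DUSP1, DUSP6, SPRY2 and SPRY4) and 3 fell (DUSP4, DUSP5 and SPRED2), against 29.6% and 27.4% of all tested genes, and the count that fell was 0 without replicate 2 of the A673 DMSO arrays and 1 without either 500 nM array. The count that rose was 2 without replicate 1 of the A673 DMSO arrays. In TC32 at 500 nM, 7 of 9 fell as deposited, all but DUSP6 and SPRY4, and 0 rose, where 62.9% of all tested genes were lower and 0.946% higher. The median was -0.69 against -0.64. After centring 3 rose in TC32 (DUSP6, SPRY1 and SPRY4) and 0 fell, against 41.3% and 30.8% of all tested genes, and 1 gene fell, SPRY2, when either A673 DMSO array was left out (-0.28). The medians after centring were 0.01 in A673 and 0.10 in TC32, against 0.10 and 0.15 over all tested genes. Tested markers of other cell types were also called higher after centring at 500 nM. CD79A had 0.40 in A673 and 0.51 in TC32, CLDN4 0.46 and 0.49, and DES 0.32 and 0.47. The rises of SPRY4 in A673 (0.36) and SPRY1 in TC32 (0.32) were no larger than those of CLDN4. A centred rise of that size therefore does not by itself show a response of the gene.

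At 100 nM the median of the list was above that of all tested genes in both lines. In A673, 2 of 9 fell as deposited (DUSP1 and DUSP2) and 0 rose, where 58.7% of all tested genes were lower and 1.31% higher, and the median was -0.07 against -0.52. After centring 6 of 9 rose (DUSP4, DUSP5, DUSP6, SPRY1, SPRY2 and SPRY4) and 0 fell, against 24.4% and 17.1% of all tested genes, with a median of 0.54 against 0.10. In TC32, 2 of 9 rose as deposited (DUSP4 and DUSP5) and 0 fell, where 5.56% of all tested genes were higher and 20.9% lower, and the median was 0.15 against -0.07. After centring 5 rose (DUSP4, DUSP5, DUSP6, SPRY2 and SPRY4) and 0 fell, against 30.6% and 21.2%, with a median of 0.36 against 0.13. As deposited, the A673 count that fell was 0 without replicate 1 of the DMSO arrays or either 100 nM array and 4 without either 500 nM array, and the TC32 count that rose was 0 without either DMSO array or replicate 1 of the 100 nM arrays. The centred TC32 count was 3 without replicate 1 of its DMSO arrays and 2 without replicate 2 of its 100 nM arrays. The 100 nM and 500 nM comparisons of a line share its DMSO arrays.

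Setting the doses against each other leaves the DMSO arrays out. At 500 nM against 100 nM, DUSP5 differed by -1.42 in A673 and -1.40 in TC32 as deposited, and by -1.21 in A673 (limma, adjusted p = 1.88e-07) and -0.82 in TC32 (adjusted p = 2e-05) after centring. DUSP4 differed by -1.33 in A673 and -1.15 in TC32 as deposited, and its centred values of -1.12 in A673 (limma, adjusted p = 5.04e-07) and -0.56 in TC32 (adjusted p = 0.000935) were also called. SPRY2 fell in TC32, at -1.41 as deposited and -0.83 after centring (limma, adjusted p = 0.000109). In A673, 4 of 9 were lower at 500 nM than at 100 nM as deposited (DUSP4, DUSP5, SPRY1 and SPRED2) and 0 higher, against 26.7% and 0.897% of all tested genes. The same 4 were lower after centring, where DUSP1 and DUSP6 were higher, against 25.1% and 10.4% of all tested genes. In TC32, 7 were lower and 0 higher as deposited, against 55.5% and 1.09%. In centred values 4 were lower in TC32 (DUSP1, DUSP4, DUSP5 and SPRY2) and 2 higher (DUSP6 and SPRY4), against 29.8% and 29.1% of all tested genes. Leaving out replicate 1 of the A673 100 nM or 500 nM arrays left 0 genes higher in A673 after centring, and leaving out replicate 2 of its 500 nM arrays gave 2 higher as deposited. In TC32, the count of genes higher after centring was smaller without replicate 1 of its 100 nM or replicate 2 of its 500 nM arrays. Calls of SPRED2 in both lines, SPRY1 in TC32 as deposited and DUSP1 in TC32 after centring were lost without single arrays, with SPRED2 values of -1.04 to -0.49 in A673 and -0.80 to -0.49 in TC32, SPRY1 values of -0.71 to -0.35 and DUSP1 values of -0.40 to -0.25.

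The difference of the 500 nM effect between the lines was tested directly. As deposited, 0 of the 9 genes were called in either direction by limma, where 0.552% of all tested genes were called higher and 1.28% lower. At an unadjusted p under 0.05 the counts were 2 higher (DUSP4 and SPRY4) and 2 lower (DUSP1 and SPRY2). After centring, 1 gene was called higher in TC32 than in A673 and 2 lower, against 3.04% and 6.75% of all tested genes. SPRY2 had -0.28 in TC32 and 0.59 in A673, a difference of -0.87 ± 0.22 (limma, adjusted p = 0.0139). DUSP1 had -0.12 in TC32 and 0.54 in A673, a difference of -0.66 ± 0.18 (limma, adjusted p = 0.0221). DUSP4 had 0.25 in TC32 and -0.35 in A673, a difference of 0.60 ± 0.19 (limma, adjusted p = 0.0448). Its deposited TC32 means with DMSO (5.43) and at 500 nM (4.88) lay under the filter level, and it reached the tests through A673. The p-value of DUSP4 is therefore a description, and the part of its dim TC32 signal in the difference was not tested. Each of these calls depended on single arrays: that of SPRY2 was lost without replicate 1 of the A673 DMSO, replicate 2 of the A673 500 nM or replicate 1 of the TC32 DMSO arrays (values of -1.18 to -0.56), that of DUSP1 without any of 3 arrays (-0.80 to -0.52) and that of DUSP4 without any of 8 (0.49 to 0.71). As deposited, leaving out replicate 1 of the A673 500 nM arrays gave 6 genes called higher in TC32 and 1 lower. The 100 nM effect gave 0 of 9 calls in either direction on both scales, where 2.22% of all tested genes were called higher in TC32 as deposited and 0.857% after centring, and 0.0887% were called lower as deposited and 1.76% after centring. At an unadjusted p under 0.05 the count was also 0 on both scales. As deposited, 2 genes (DUSP1 and DUSP6) were called higher in TC32 at 100 nM without either A673 500 nM array.

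**Figure D4:**
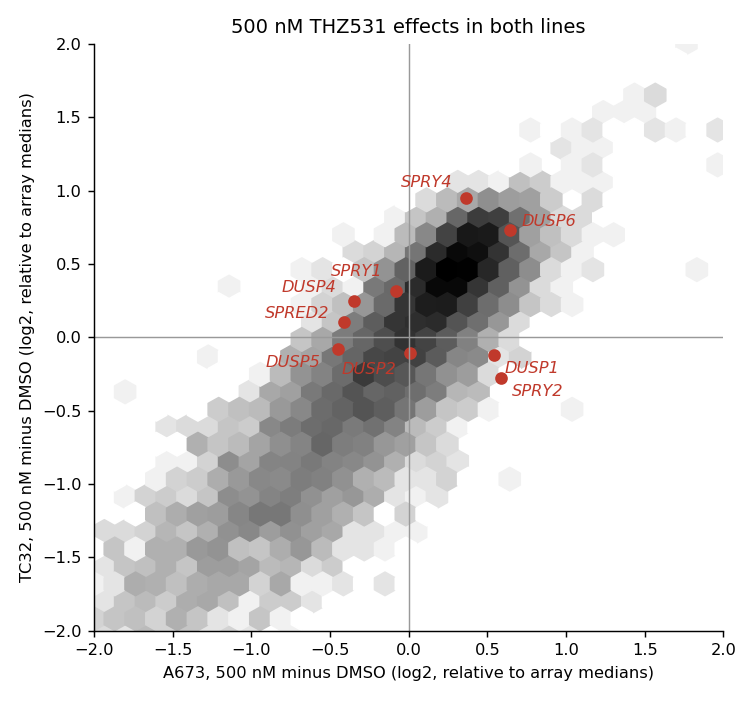
The 500 nM difference from DMSO in TC32 (vertical axis) against that in A673 (horizontal axis), both log2 after centring, for the tested genes as grey hexagons (darker for more genes, log colour scale; axes end at -2 and 2) and the 9 tested feedback genes as red points. SPRY2 and DUSP1 lie to the lower right (0.59 and 0.54 in A673, -0.28 and -0.12 in TC32), DUSP4 to the upper left, and DUSP6 above 0 in both lines.

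Other genes of the same families and of the cascade were read from lists. Their counts at 500 nM stand against all tested genes, of which 82.5% fell in A673 and 62.9% in TC32 as deposited. After centring 27.4% fell and 29.6% rose in A673, and 30.8% fell and 41.3% rose in TC32. Of 11 tested other DUSP, Sprouty and SPRED genes, 11 fell in A673 and 9 in TC32 at 500 nM as deposited. Centred on the array medians, 4 fell and 1 rose in A673, and 5 fell and 2 rose in TC32. The list's median as deposited was -0.88 in A673 and -1.03 in TC32, against -0.73 in A673 and -0.64 in TC32 over all tested genes. The lowest values were those of SPRED1, the close relative of SPRED2, at -3.01 in A673 and -2.63 in TC32 as deposited, and of DUSP11, an RNA phosphatase rather than a MAP kinase phosphatase, at -1.97 in A673 and -2.91 in TC32. SPRED1 also fell after centring, at -2.18 in A673 (limma, adjusted p = 5.55e-11) and -1.84 in TC32 (adjusted p = 5.11e-10). DUSP16, a JNK phosphatase, fell as well, at -1.04 in A673 (limma, adjusted p = 2.36e-05) and -1.03 in TC32 (adjusted p = 1.68e-05) after centring.

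In the steps from receptor to RAS, 15 of 19 tested genes fell in A673 and 9 in TC32 at 500 nM as deposited. Of all tested genes, 82.5% fell in A673 and 62.9% in TC32. After centring 4 fell and 8 rose in A673, against 27.4% and 29.6% of all tested genes. In TC32 4 fell and 12 rose, against 30.8% and 41.3%. The list's deposited median was -0.66 in A673 and -0.43 in TC32, against -0.73 in A673 and -0.64 in TC32 over all tested genes. Counts from RAF to ERK and for JNK and p38 stand against the same shares. The exchange factors that load RAS with GTP had the lowest values: SOS2 was at -3.04 in A673 and -2.72 in TC32, and SOS1 at -2.88 in A673 and -2.84 in TC32, as deposited. They were already lower at 100 nM, where the centred difference of SOS1 was -1.27 in A673 (limma, adjusted p = 1.66e-07) and -0.59 in TC32 (adjusted p = 0.000928). HRAS was 0.41 in A673 (limma, adjusted p = 0.00443) and 0.36 in TC32 (adjusted p = 0.00773) after centring at 500 nM. The RAF kinase gene ARAF had 0.14 in A673 (limma, adjusted p = 0.303) and 0.33 in TC32 (adjusted p = 0.0168) on that scale. Of 9 tested genes from RAF to ERK, 8 fell in A673 and 5 in TC32 as deposited, with SHOC2, a RAF-activating scaffold, at -2.41 in A673 and -2.07 in TC32 and MAPK7 (ERK5) at -1.73 in A673 and -1.66 in TC32. After centring 2 of these 9 rose and 3 fell in A673, and 6 rose and 3 fell in TC32. Of 11 tested JNK and p38 genes, 8 fell in each line as deposited, and 3 rose and 3 fell in each line after centring. The deposited medians were -0.69 in A673 and -0.43 in TC32 from RAF to ERK, and -0.88 in A673 and -0.62 in TC32 for the JNK and p38 genes. Lowest among the JNK and p38 genes were MAP2K4, a JNK kinase, at -2.15 in A673 and -2.40 in TC32, and MAP3K1 at -1.54 in A673 and -1.63 in TC32.

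ERK target transcripts outside the feedback genes moved in both directions. Of 14 tested, 6 rose and 7 fell in A673 and 5 rose and 5 fell in TC32 at 500 nM as deposited, where 0.946% of all tested genes rose in each line and 82.5% fell in A673 and 62.9% in TC32. After centring 9 rose and 3 fell in A673, and 10 rose and 2 fell in TC32, against 29.6% and 41.3% of all tested genes that rose in these lines. Values of single targets are as deposited unless centring is named. The early-response genes IER3 and IER2 rose in both lines as deposited, IER3 by 1.83 in A673 and by 2.81 in TC32 and IER2 by 1.24 in A673 and by 2.26 in TC32. EGR1, an early zinc finger factor, rose by 1.14 in A673 and by 3.02 in TC32, while FOS rose by 1.76 in A673 and had -0.11 in TC32 (limma, adjusted p = 0.595). ZFP36, an mRNA decay factor, rose by 1.71 in A673 and by 0.67 in TC32, and PHLDA1 rose by 0.80 in A673 and by 0.86 in TC32. The receptor gene EPHA4 and the ETS factor ETV5 fell in both lines, EPHA4 at -3.07 in A673 and -3.32 in TC32, and ETV5 at -1.78 in A673 and -1.75 in TC32 as deposited. The receptor gene EPHA2 also fell, at -1.51 in A673 and -1.01 in TC32. ETV4 was -0.61 in A673 (limma, adjusted p = 0.0075) and -0.41 in TC32 (adjusted p = 0.0866). FOSL1 was -0.62 in A673 (limma, adjusted p = 0.00741) and -0.25 in TC32 (adjusted p = 0.309), MCL1 was -0.55 in A673 (adjusted p = 0.0117) and -0.39 in TC32 (adjusted p = 0.0847). The CCND1 values were -0.44 in A673 and -0.50 in TC32, and MYC had 0.14 in A673 (limma, adjusted p = 0.442) and -0.57 in TC32 (adjusted p = 0.00221). After centring CCND1 was higher in both lines, at 0.39 in A673 and 0.29 in TC32, so its direction turns with the scale. The median of the 14 was -0.15 in A673 and -0.32 in TC32 as deposited, against -0.73 in A673 and -0.64 in TC32 over all tested genes. After centring it was 0.68 in A673 and 0.47 in TC32, against 0.10 in A673 and 0.15 in TC32.

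With DMSO the ERK targets did not all follow the feedback genes. As deposited, 10 of 14 were higher in A673 and 2 lower, where 77.4% of all tested genes were higher and 5.13% lower. After centring 7 were higher and 5 lower, against 33.9% and 21.4% of all tested genes. EGR1 was 3.55 higher in A673 (limma, adjusted p = 8.15e-17), EPHA2 1.96 (adjusted p = 7.58e-12), IER2 1.89 (adjusted p = 4.11e-13), ETV4 1.63 (adjusted p = 1.84e-09), ETV5 1.27 (adjusted p = 8.07e-09) and PHLDA1 1.04 (adjusted p = 1.21e-06), after centring. The deposited TC32 means with DMSO of ETV4 (5.638) and PHLDA1 (5.505) lay under the filter level. ETV4 and PHLDA1 reached the tests through their A673 signal, so their p-values between the lines are descriptions. FOS at -1.51 (limma, adjusted p = 2.1e-08) and ZFP36 at -1.15 (adjusted p = 2.27e-07) were lower in A673, the direction of DUSP1. EPHA4, CCND1 and IER3 made up the rest of the 5 that were lower in A673 after centring. Their deposited means with DMSO were 8.011, 12.675 and 10.026 in A673 and 8.233, 12.457 and 9.582 in TC32. Among mRNA decay factors, 12 of 15 fell and 1 rose in A673 at 500 nM and 9 of 15 fell in TC32 as deposited, shares close to the 82.5% and 62.9% of all tested genes that fell. After centring 5 fell and 4 rose in A673, and 4 fell and 6 rose in TC32. The lowest deposited values were those of the decapping cofactor DCP1A (-2.76 in A673, -2.10 in TC32) and the miRNA effector TNRC6A (-1.62 in A673, -1.80 in TC32), while ZFP36L2 rose by 0.53 in A673.

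The genes whose 12 array-centred values ran most like a feedback gene were found by Pearson's r, which over all 12 arrays mostly follows the difference between the lines. DUSP5 was the nearest gene to DUSP4 among all tested genes, at r = 0.991 over 12 arrays, 0.988 within the 6 A673 arrays and 0.871 within the 6 TC32 arrays. DUSP6 ran with GOLM1 (0.998), CTSV (0.998) and CALCB (0.997). DUSP1 ran with VWCE (0.992), PID1 (0.987) and ANXA2R (0.983), and SPRY2 with LYPLA2 (0.985), ELOF1 (0.983) and GLIPR1 (0.983). SPRY4 ran with MT2A (0.986), TMSB15A (0.986) and KLHL5 (0.982). SPRY1 ran with SHROOM2 (0.96), DUSP4 (0.958) and GLCCI1 (0.95), although within TC32 its r with DUSP4 was 0.542. DUSP4 also ran with DLAT (0.986) and SERTAD2 (0.983), DUSP5 with FNIP2 (0.988) and GLCCI1 (0.983), and SPRED2 with TTC9 (0.931), ARHGAP29 (0.93) and MTA3 (0.922). SPRED2 and TTC9 had r = 0.974 within A673 and 0.157 within TC32. DUSP2 had no near partner, with AATK highest at 0.802, then KLHL25 (0.749) and AVPI1 (0.743). Among feedback gene pairs, DUSP6 and SPRY4 had r = 0.973 within TC32, while DUSP1 and DUSP6 had r = 0.84 within A673 and -0.312 within TC32. Centring takes the same array median from every gene, so genes with a level deposited signal run together by construction. In TC32, DUSP6 (7.88 to 8.13) and SPRY4 (5.17 to 5.46, under the filter level) were nearly level as deposited. Their r therefore does not show a shared response. All these values share arrays and are descriptions.

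The feedback genes are compact. In the RefSeq annotation of GRCh38.p14 the median span was 10.3 kb, against 28.38 kb over the 10144 tested genes with a span. DUSP2 spans 2.27 kb (chr2:96143169-96145440), DUSP1 3.1 kb (chr5:172768096-172771195), SPRY2 5.15 kb (chr13:80335976-80341126), DUSP6 5.27 kb (chr12:89347235-89352501) and SPRY1 6.97 kb (chr4:123396795-123403760). DUSP5 spans 13.63 kb (chr10:110497907-110511533), SPRY4 14.59 kb (chr5:142310430-142325021), DUSP4 17.62 kb and DUSP10 40.67 kb (chr1:221701424-221742089), while SPRED2 spans 125.42 kb (chr2:65307175-65432599). Over all tested genes, short genes had higher centred values at 500 nM: those under 5 kb had a median of 0.33 in A673 and 0.41 in TC32, those of 5 to 20 kb had 0.18 in A673 and 0.22 in TC32, and those of 50 to 100 kb had -0.06 in A673 and 0.02 in TC32. Genes over 100 kb, the class of SPRED2, had -0.01 in A673 and 0.13 in TC32, above the class of 50 to 100 kb. DUSP6 (0.65 in A673, 0.73 in TC32) lay above the upper quartile of 0.39 in A673 and 0.50 in TC32 for genes of 5 to 20 kb. SPRY4 was below that quartile in A673 (0.36) and above it in TC32 (0.95), and DUSP4 and DUSP5 lay below the lower quartile of -0.21 in A673 and above that of -0.45 in TC32. Across genes the Spearman correlation of span with the 500 nM difference was -0.226 in A673 and -0.115 in TC32, over genes that are not independent, and the part of gene length in the members' values was not tested.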

How the data were processed

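Gene expression was measured with biotin-labelled total RNA on arrays, 2 per group. The deposited values are log2 signals; how the authors normalised them is not given in the sources used here, and the submitters' processing notes list MAS5, GRCh37 and hg19 with no role. ERCC spike-in controls were added, per the labels' protocols, and whether the arrays were scaled to them is not known. The DMSO samples' labels also carry a dose of 100 nM, read as not applying.

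Of 49395 probe sets, 44994 were annotated to 1 gene (GEO's platform annotation, symbols updated through RefSeq), 1832 to several and 2569 to none. In 46566 the values had 3 decimals and repeated 1 gene-level value per gene. The other 2829 were not used. Genes sharing all values with another (116) were left out, and 10 kept genes had more than 1 set of values, of which the one with the highest mean was used.

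Group means were estimated over all 12 arrays by limma 3.58.1 under R 4.3.3 (variances moderated along the mean signal, two-sided, Benjamini-Hochberg adjusted p under 0.05), on the 10148 genes at or above the 40th percentile of mean signal. Tables were made with Python 3.11.15 and pandas 2.3.3. Where a group mean is under 5.94, a fold is a lower bound taken against that level. The median residual SD (6 degrees of freedom) was 0.189 for deposited and 0.118 for centred values. In the deposited fit the prior degrees of freedom, the weight of the trend, were infinite. Each deposited SE and p-value thus rests on the trend at the gene's mean signal, and the gene's own replicate spread had no weight. For centred values they were 15.8, so the gene's own spread counted in part. Whole-array offsets, shared by all genes, make up much of the deposited spread, so those adjusted p-values are smaller than 2 arrays per group warrant. The number of arrays limits the precision. The model was tested on simulated data.

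Named genes were the members, the ERK targets, 8 RAS, RAF and ERK genes and, from other lists, up to 2 genes with the highest and 2 with the lowest called differences at 500 nM in each line; DUSP16 was named after its values were seen. Some genes of that rule are not reported here. Likeness took the 3 highest r per member. The members and lists were chosen with earlier results of these data known. Replicate numbers pair no samples: correlations of replicate differences between groups were -0.156 to 0.438. Alternatives were centring, the filter, the variance trend, the probe set, each line alone, a replicate block and leaving out each array; leaving out arrays on centred values was added after seeing the data.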

Additional observations from a re-analysis of the deposited data

Results flagged for a closer look

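For 3 genes the 500 nM effect differed between the lines by a test of the difference itself, relative to the array medians (limma, TC32 minus A673). SPRY2 had -0.866 (adjusted p = 0.0139), DUSP1 had -0.662 (adjusted p = 0.0221) and DUSP4 had 0.598 (adjusted p = 0.0448). The deposited TC32 means of DUSP4 with DMSO (5.43) and at 500 nM (4.88) lay under the filter level, so its p-value is a description. As deposited the differences were -0.83 for SPRY2, -0.62 for DUSP1 and 0.64 for DUSP4, and none of the 3 passed the threshold. The A673 500 nM arrays were the pair most offset from each other (medians of 7.98 and 7.43), and the part of that offset in the deposited values was not tested. Replicate 1 of the A673 DMSO arrays carried 7.78 for SPRY2 against 8.15 in replicate 2, the opposite order to their array medians of 8.87 and 8.78.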

How the results depend on the processing

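The choice between deposited and array-centred values changed more than any other setting. With centring, the counts of feedback genes were 4 higher and 3 lower in A673 at 500 nM, 3 higher and 0 lower in TC32 at 500 nM, 6 higher and 0 lower in A673 at 100 nM, 5 higher in TC32 at 100 nM, 2 higher in A673 and 2 higher and 4 lower in TC32 for 500 nM against 100 nM, and 1 higher and 2 lower for the 500 nM effect between lines. Among tested genes called on at least 1 scale, directions turned with centring in A673 at 500 nM for DUSP1 (0.54), DUSP2 (0.01), DUSP6 (0.65), SPRY2 (0.59) and SPRY4 (0.36), and in TC32 at 500 nM for DUSP4 (0.25), DUSP6 (0.73), SPRY1 (0.32) and SPRED2 (0.10). They also turned in A673 at 100 nM for DUSP1 (0.085), DUSP2 (0.035), DUSP6 (0.29), SPRY1 (0.54), SPRY2 (0.56) and SPRY4 (0.56), in TC32 at 500 nM against 100 nM for DUSP6 (0.37) and SPRY1 (0.054), and with DMSO for DUSP2 (-0.11). DUSP10, from the unfiltered fit, turned in A673 at 500 nM (0.67) and at 100 nM (0.44). Differences called on neither scale also turned: SPRED2 at 100 nM in both lines, DUSP1 at 100 nM in TC32, SPRY2 for 500 nM against 100 nM in A673, and DUSP5, SPRY1, SPRY2 and SPRY4 for the 100 nM effect between lines. The cause was not tested beyond the shift that centring removes by construction. Replicate numbers do not pair these samples. A replicate block as deposited changed 1 count, the 500 nM effect between lines, to 1 lower, and a replicate block within line on centred values gave the centred counts except for 5 higher in A673 at 100 nM, with the same turned values except DUSP2 with DMSO at -0.21 and DUSP6 in A673 at 100 nM, which was not turned there. Fitting each line's 6 arrays alone left 0 lower in A673 at 100 nM. The filters, the variance trend and the probe set choice moved no count by over 1.5 times.

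Leaving out each array in turn as deposited gave 5 to 9 lower in A673 and 5 to 7 lower in TC32 at 500 nM, 0 to 4 lower in A673 and 0 to 2 higher in TC32 at 100 nM, 0 to 2 higher in A673 for 500 nM against 100 nM, 0 to 6 higher and 0 to 2 lower for the 500 nM effect between lines, and 0 to 2 higher for the 100 nM effect. On centred values it gave 2 to 4 higher and 0 to 3 lower in A673 at 500 nM, 2 to 3 higher and 0 to 1 lower in TC32 at 500 nM, 4 to 6 higher in A673 and 2 to 5 higher in TC32 at 100 nM, 0 to 2 higher in A673 and 1 to 2 higher in TC32 for 500 nM against 100 nM, and 0 to 2 higher and 0 to 2 lower for the 500 nM effect. With DMSO, 7 to 8 genes stayed higher in A673 as deposited and 7 on centred values. With 1 array left in a group, its spread is assumed to be that of the other groups. Array number and dim signals in TC32 limit these values.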
